A study of Homo sapiens with 42 samples.

Results

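The genes described here encode the subunits of voltage-gated sodium channels, potassium channels and voltage-gated calcium channels. Members were chosen by symbol alone: the SCN genes with a number and the letter A or B, all KCN genes and all CACN genes, leaving out readthrough and antisense names that contain OT1. This gave 134 genes of the 57820 gene rows in each table. They fall into 9 families: 40 voltage-gated potassium channel genes, 12 calcium- or sodium-activated potassium channel genes, 15 inward rectifiers, 15 two-pore channels, 12 potassium channel auxiliary genes, 10 sodium channel alpha and 4 sodium channel beta genes, 10 calcium channel pore genes and 16 calcium channel auxiliary genes.

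RNA sequencing covered 42 samples of 5 B-cell acute lymphoblastic leukaemia lines in which NSD2, a histone methyltransferase, was added or lowered. Reh and 697 cells overexpressed the E1099K mutant of NSD2 (EK) or its wild-type form (WT), or held an empty vector (EV), with 2 libraries per arm in Reh and 3 in 697. RS411 (RS4;11), RCH (RCH-ACV) and SEM cells carried the hairpin sh2, the hairpin sh5 or a non-targeting hairpin (NT), with 3 libraries per arm. The series text names sh2 as the NSD2 hairpin, and sh5 appears in the sample titles alone. The EK and WT comparisons of a line share its EV libraries, and the sh2 and sh5 comparisons share its NT libraries. Every arm is an engineered culture of an established line. The labels do not say whether an arm was a clone or a pool, nor whether replicates were separate cultures, so p-values measure the spread between these libraries, which may be technical.

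Voltage-gated sodium and calcium channels open when the membrane depolarises, and potassium channels return the membrane towards its resting potential. In neurons and muscle these proteins carry and shape action potentials. Lymphocytes fire none, but a potassium channel opened by calcium and one opened by voltage hold the membrane negative enough for calcium to enter through store-operated channels after receptor signalling.

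NSD2, listed as WHSC1, was higher in all EK and WT libraries than in the EV libraries of both lines, with log2 fold changes of 1.54 ± 0.12, adjusted p = 0.0168 for EK and 1.55 ± 0.12, adjusted p = 0.0135 for WT in Reh, and of 3.14 ± 0.19, adjusted p = 6.56e-05 for EK and 3.26 ± 0.19, adjusted p = 2.61e-05 for WT in 697. In SEM it fell, with log2 fold changes of -0.99 ± 0.06, adjusted p = 8.92e-09 for sh2 and -1.28 ± 0.06, adjusted p = 1.87e-09 for sh5. All sh2 and sh5 libraries of RS411 and RCH were below their NT libraries too, but the tests within those lines did not pass, with adjusted p = 0.118 and 0.164 in RS411 and 0.0952 and 0.508 in RCH for sh2 and sh5. Reads per library ran from 21876505 in RCH to 67651596 in RS411. Of 8 B-lymphoid marker genes all had reads in every arm apart from VPREB1, which was at 0 in the 3 Reh arms. RCH sh2 replicate 1 had the lowest NSD2 level of that arm (139 CPM, reads scaled by the library's total) and the fewest reads of all libraries (21876505). It was the lowest RCH sh2 library for SCN3A, SCN8A, KCNQ3, KCNS3, KCNK10 and KCNA5, among others. For other members, such as KCNAB2, KCNN1 and KCNJ16, it was the highest. Members going each way were not counted, and a link to the NSD2 level was not tested.

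Of the 134 members, the numbers with fewer than 10 reads over all libraries of a line were 61 in Reh, 25 in 697, 61 in RS411, 42 in RCH and 68 in SEM, and none was at 0 in all 42 libraries. Enough reads for testing were found for 53 members in Reh, 68 in 697, 50 in RS411, 62 in RCH and 39 in SEM. Of the 134 genes, 27 were tested in every line and 47 in none. For a rough ranking of genes, CPM was divided by the longest coding sequence in kilobases (CPM per kb coding), and means ± SD are over the control libraries of a line. Exon bases outside the coding sequence are left out of this length, and their share differs between genes. CACNB4 has 36268 exon bases and 1560 coding bases, and CACNA2D4 has 7639 and 3462. The order of genes may therefore depend on the length used.

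The beta subunit KCNAB2, which binds voltage-gated potassium channels from the cytoplasm, ranked among the 5 highest members in Reh, RS411, RCH and SEM. In Reh EV libraries the order was KCNK12 (81.5 ± 8.54), KCNAB2 (60.7 ± 19.8), KCNN1 (59.8 ± 6.78), KCNMB4 (28.9 ± 2.30) and CACNG6 (27.1 ± 0.723) CPM per kb coding (n = 2). KCNK12 is a two-pore channel subunit, KCNN1 a small-conductance calcium-activated channel, KCNMB4 a beta subunit of the BK channel and CACNG6 a calcium channel gamma subunit. The ranges of KCNAB2 and KCNN1 overlapped, and so did those of KCNMB4 and CACNG6. In 697 EV libraries the highest were KCNJ2 (186 ± 103), KCNK12 (171 ± 21.8), KCNJ16 (143 ± 34.97), CACNG6 (32.7 ± 13.6) and CACNB3 (29.1 ± 1.65) CPM per kb coding (n = 3). KCNJ2 and KCNJ16 are inward rectifiers and CACNB3 is a calcium channel beta subunit. The ranges of KCNJ2, KCNK12 and KCNJ16 in the 697 EV libraries overlapped, as did those of CACNG6 and CACNB3, so their order is not resolved.

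RS411 NT libraries were led by KCNAB2 (102 ± 5.42), followed by KCNQ5 (18.1 ± 2.01), CACNA2D4 (16.6 ± 3.35), CACNB3 (14.4 ± 1.12) and KCNK6 (11.3 ± 1.37) CPM per kb coding (n = 3). KCNQ5 is an M-current channel, CACNA2D4 an alpha2delta subunit of calcium channels and KCNK6 a two-pore channel. The range of CACNA2D4 overlapped those of KCNQ5 and CACNB3. RCH NT libraries had KCNJ12 (88.3 ± 32.001), CACNA2D4 (42.1 ± 6.81), KCNAB2 (40.2 ± 14.4), CACNB3 (27.1 ± 2.48) and KCNJ2 (25.95 ± 13.3) CPM per kb coding (n = 3), and the range of KCNJ12, an inward rectifier, overlapped that of KCNAB2. KCNAB2 also overlapped CACNA2D4 and CACNB3, and CACNB3 overlapped KCNJ2. In SEM NT libraries the order was KCNAB2 (98.3 ± 11.97), CACNA2D4 (67.2 ± 3.27), CACNB4 (66.01 ± 7.03), CACNB3 (27.9 ± 0.687) and KCNK5 (18.2 ± 2.56) CPM per kb coding (n = 3), and CACNA2D4 and the beta subunit CACNB4 overlapped. By this measure no sodium channel gene was among the 5 highest in any line.

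**Figure D1:**
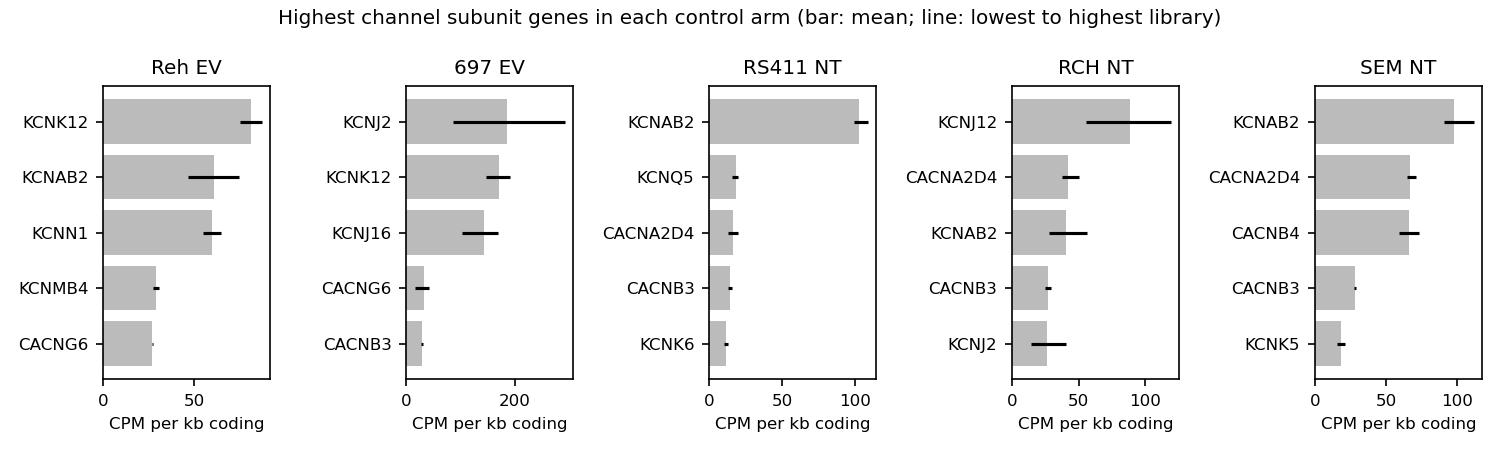
Level of the 5 highest channel subunit genes in the control arm of each line, as CPM per kb of coding sequence (x axis, own scale per line). Bars are means and black lines run from the lowest to the highest library. KCNAB2 leads in RS411 and SEM, while 3 genes with overlapping ranges lead in 697.

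Promoter sequences are shown for 4 genes on which the results below turn: SCN8A, which was higher with added NSD2 in Reh and 697, KCNJ6, which was high in 5 of the 6 libraries of 697 cells given NSD2, SCN9A, which was nearly lost in SEM with sh2, and KCNMB2, which was higher in RS411 with both hairpins and in SEM with sh5. They are RefSeq promoters of GRCh38.p14, from 250 bases before to 50 after the transcription start, 5′ to 3′ on the gene's strand, with CG pairs in capitals. Of the 134 members 96 had an entry.
SCN8A, chr12:51590983-51591282, plus strand: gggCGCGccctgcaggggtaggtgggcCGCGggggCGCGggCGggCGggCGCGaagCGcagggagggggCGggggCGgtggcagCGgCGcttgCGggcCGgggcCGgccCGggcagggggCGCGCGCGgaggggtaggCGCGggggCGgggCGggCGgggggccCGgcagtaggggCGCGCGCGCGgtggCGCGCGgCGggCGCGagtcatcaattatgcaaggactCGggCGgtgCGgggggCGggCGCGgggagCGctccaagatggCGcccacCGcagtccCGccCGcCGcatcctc
KCNJ6, chr21:37916408-37916707, minus strand: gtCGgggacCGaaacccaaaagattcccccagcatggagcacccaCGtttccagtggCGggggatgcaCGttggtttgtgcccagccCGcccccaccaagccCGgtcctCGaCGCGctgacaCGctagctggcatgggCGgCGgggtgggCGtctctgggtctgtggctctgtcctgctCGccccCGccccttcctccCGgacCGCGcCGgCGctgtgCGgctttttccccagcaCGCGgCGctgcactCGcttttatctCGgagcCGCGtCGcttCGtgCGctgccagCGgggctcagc
SCN9A, chr2:166375895-166376194, minus strand: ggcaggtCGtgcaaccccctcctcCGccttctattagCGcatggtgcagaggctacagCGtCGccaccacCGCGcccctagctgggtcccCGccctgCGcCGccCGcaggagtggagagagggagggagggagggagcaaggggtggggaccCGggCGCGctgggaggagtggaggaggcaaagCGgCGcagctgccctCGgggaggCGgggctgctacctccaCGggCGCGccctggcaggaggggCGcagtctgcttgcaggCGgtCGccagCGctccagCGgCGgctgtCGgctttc
KCNMB2, chr3:178536186-178536485, plus strand: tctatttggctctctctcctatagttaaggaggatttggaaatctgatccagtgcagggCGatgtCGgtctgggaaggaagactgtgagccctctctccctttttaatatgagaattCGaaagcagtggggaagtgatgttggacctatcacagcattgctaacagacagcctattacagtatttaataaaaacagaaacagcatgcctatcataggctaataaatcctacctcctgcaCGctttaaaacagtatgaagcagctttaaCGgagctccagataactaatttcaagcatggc
CG, which reads the same on both strands, occurred 52 times in the SCN8A promoter, 33 times in KCNJ6, 28 times in SCN9A and 5 times in KCNMB2. The median was 14 over all 35116 promoters and 19 over the members with an entry. As many or fewer CG pairs were found in 99.4% of promoters for SCN8A, 84.4% for KCNJ6, 75.8% for SCN9A and 33.7% for KCNMB2. SCN8A, KCNJ6 and SCN9A thus lay above the median of all promoters and KCNMB2 below it.

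Across the 10 comparisons within lines, 27 members passed an adjusted p under 0.05 at least once. Of these, 26 passed in SEM, where 27.9% of all genes were called with sh2 and 21.3% with sh5. The share of all genes called at least once is not given here. In cells given NSD2 all members called by the main fits, without a replicate block, were higher: 1 of 53 tested in Reh EK (all genes: 0.213% called), 1 of 53 in Reh WT (0.219%), 2 of 68 in 697 EK (0.172%) and 3 of 68 in 697 WT (0.19%). In 697 the EV libraries of SCN3A, SCN8A and KCNMB4 lay below the mean of 10 kept for testing. SCN8A in Reh, with 7 and 6 EV reads, also met the read filter through its EK and WT libraries alone. Genes this low in EV were tested only where another arm was higher, so a fall could not have been called for them. In 697 the replicate numbers were taken to pair the libraries, because same-numbered libraries deviated alike. With the number as a block 4 members were called in EK (all genes: 0.987% called) and 5 in WT (1.08%). Of these KCNMA1 was lower in EK (-1.04 ± 0.19, adjusted p = 0.0326) and the others were higher. In Reh, where pairing was not shown, the block called members in both directions. The lower ones were KCNK12, KCNK6 and KCNA2 in EK, and KCNK12 and CACNB2 in WT.

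In the hairpin lines 3 of 50 tested members were called with RS411 sh2 (all genes 1.67%), 1 of 50 with RS411 sh5 (0.478%) and 1 of 62 with RCH sh2 (1.37%), all higher. RCH sh5 gave 0 of 62 with edgeR (0.0229%), with 5 members at an unadjusted p under 0.05 and 3 called by DESeq2. With the replicate block the counts were 14 for RS411 sh2 (all genes 14.5%), 6 for RS411 sh5 (5.41%) and 1 for RCH sh5 (0.263%). Calls gained with the block in RS411 included KCNJ16 (1.65 ± 0.39, adjusted p = 0.0106), KCNJ5 (-1.91 ± 0.49, adjusted p = 0.0167), KCNMB3 (-0.49 ± 0.15, adjusted p = 0.0409) and KCNS3 (-0.99 ± 0.32, adjusted p = 0.0465) with sh2, and KCNS3 (-1.49 ± 0.33, adjusted p = 0.0170) and CACNB4 (0.96 ± 0.24, adjusted p = 0.0323) with sh5. In RS411 sh2 the count was 1 without NT replicate 1 and 13 without sh2 replicate 3, and in RS411 sh5 it was 2 without sh5 replicate 2.

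SEM stood out by its number of calls, for channel genes as for all genes. With sh2, 23 of 39 tested members were called, 9 higher and 14 lower, against 27.9% of all genes (13.5% higher, 14.4% lower). With sh5, 20 of 39 were called, 6 higher and 14 lower, against 21.3% of all genes (11.1% higher, 10.2% lower). The median log2 fold change of the tested members was -0.18 with sh2 and -0.19 with sh5, and of all tested genes 0.01 and -0.01.

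**Figure D2:**
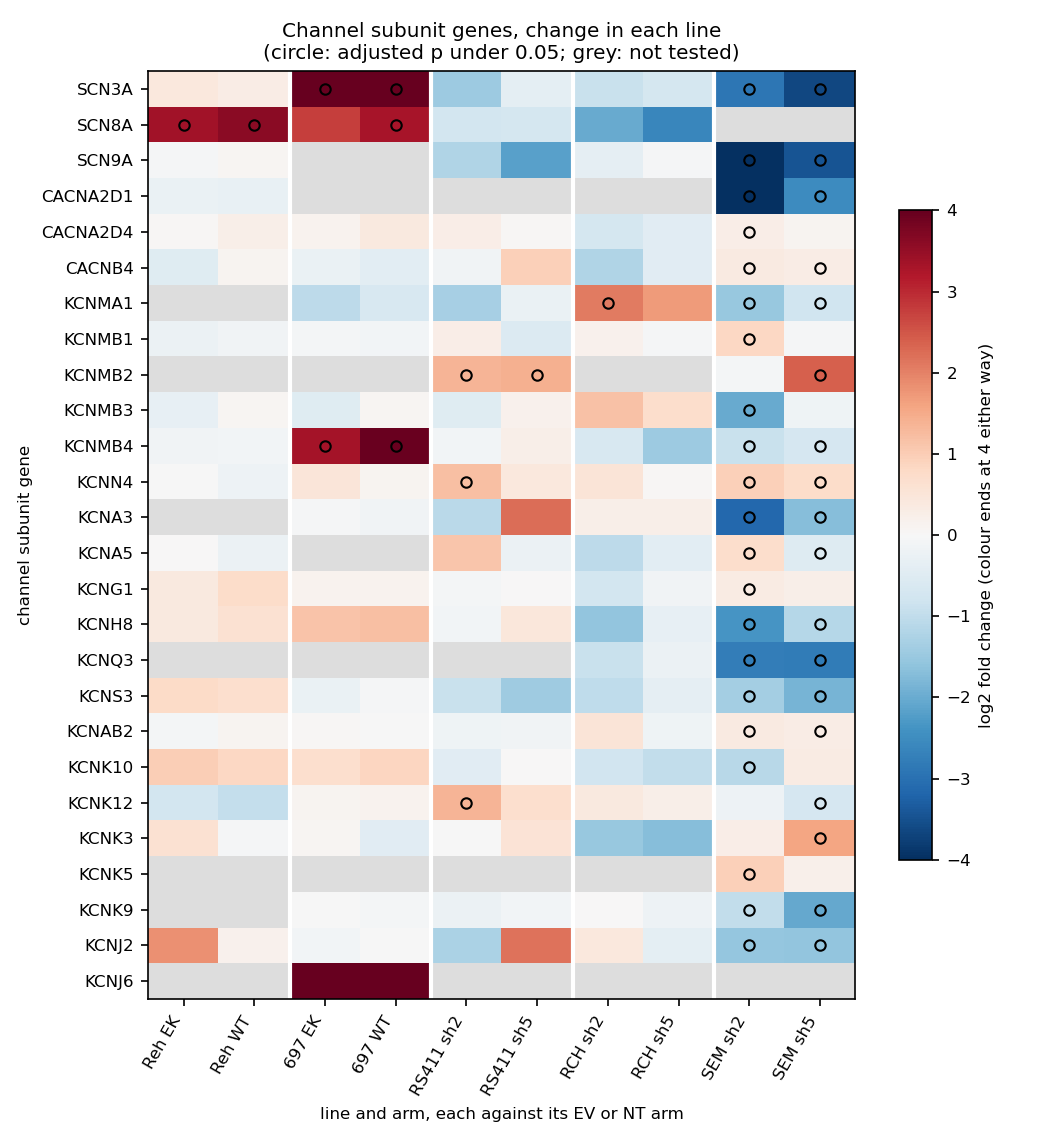
Log2 fold change (colour) of channel subunit genes (rows) in each arm against the EV or NT arm of its line (columns). Rows are 25 of the 27 members called in at least 1 comparison and KCNJ6, circles mark an adjusted p under 0.05, and grey marks genes not tested. SEM holds most circles, while SCN8A is the row with circles in both Reh and 697.

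Among the 10 sodium channel alpha genes, which form the pore, SCN8A was higher with added NSD2 in both overexpression lines. It encodes the main sodium channel of axon initial segments and nodes. In Reh SCN8A had 2.12 and 2.83 CPM in EK libraries and 3.12 and 2.87 CPM in WT libraries, against 0.261 and 0.221 CPM in EV libraries. Every EK and WT library was above both EV libraries, with log2 fold changes of 3.35 ± 0.32, adjusted p = 0.0257 for EK and 3.59 ± 0.32, adjusted p = 0.0186 for WT. With 2 libraries per arm these calls needed all of them: without any 1 library of the arms compared the adjusted p rose above the threshold, to at most 0.209 for EK and 0.169 for WT. They were also lost when only the 2 arms compared were fitted (0.102 for EK and 0.0681 for WT).

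In 697 SCN8A had 43.4, 54.5 and 15.97 normalized counts in EK libraries and 65.4, 63.02 and 28.4 in WT libraries, against 5.35, 3.01 and 4.19 in EV libraries. Replicate 3 was the lowest of each NSD2 arm, yet all 6 lay above the EV libraries. The change on the log2(normalized count + 1) scale was 3.29 ± 0.50, adjusted p = 0.0274 for WT, and for EK it was 2.77 ± 0.50 (adjusted p = 0.0941), which passed with the replicate block (adjusted p = 0.00877). The WT call was lost with edgeR on the recovered reads (adjusted p = 0.0507), with a pseudocount of 5 (0.0557), and without EV replicate 1 (0.0844), EV replicate 2 (0.143), EV replicate 3 (0.0994), WT replicate 1 (0.229) or WT replicate 2 (0.204).

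SCN3A, a sodium channel best known from the fetal brain, was raised in 697 but not called in Reh. In 697 it had 105, 80.2 and 84.4 normalized counts in EK libraries and 230.1, 187 and 189 in WT libraries, against 5.35, 4.02 and 3.14 in EV libraries. The arms did not overlap, and each WT library also exceeded each EK library. The changes were 4.15 ± 0.26, adjusted p = 6.56e-05 for EK and 5.31 ± 0.26, adjusted p = 1.63e-05 for WT. In Reh, where the gene was already expressed, it had 3.14 and 2.35 CPM in EK libraries, 2.67 and 2.41 CPM in WT libraries and 2.61 and 1.51 CPM in EV libraries, and the arms overlapped. Whether the response differs between Reh and 697 was not tested.

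In SEM the direction for SCN3A was downwards. It had 1.06, 0.646 and 0.555 CPM with sh2 and 0.585, 0.397 and 0.369 CPM with sh5, against 6.28, 6.04 and 4.90 CPM with NT. No hairpin library came near the NT libraries, and the log2 fold changes were -2.89 ± 0.23, adjusted p = 2.01e-07 for sh2 and -3.65 ± 0.25, adjusted p = 1.21e-07 for sh5. RCH libraries had 0.777, 5.77 and 8.59 CPM with sh2 and 3.15, 7.51 and 6.16 CPM with sh5, against 6.23, 12.9 and 7.74 CPM with NT, which overlapped and were not called. In RS411 SCN3A stayed at or below 0.540 CPM in every library, and its sh2 change of -1.44 ± 0.67, adjusted p = 0.278 passed with the replicate block (-1.59 ± 0.47, adjusted p = 0.0334).

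SCN9A, the sodium channel of pain-sensing neurons, lies next to SCN1A and SCN7A on chromosome 2 and was nearly lost in SEM. It had 0, 0.0308 and 0 CPM with sh2 and 0.133, 0.318 and 0.132 CPM with sh5, against 1.96, 2.54 and 2.09 CPM with NT. The 3 sh2 libraries held 1 SCN9A read and the 3 NT libraries 238, a level of 0.414% of NT (95% interval 0.0104% to 2.33%, exact, counting error only; adjusted p = 9.53e-08). With sh5 the log2 fold change was -3.46 ± 0.34, adjusted p = 3.84e-06. In Reh SCN9A had 4.28 CPM or more in every library and was not called (-0.06 ± 0.20 for EK and 0.09 ± 0.20 for WT, with adjusted p = 0.99997 and 0.99997), and 697 held at most 2 reads per arm.

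**Figure D3:**
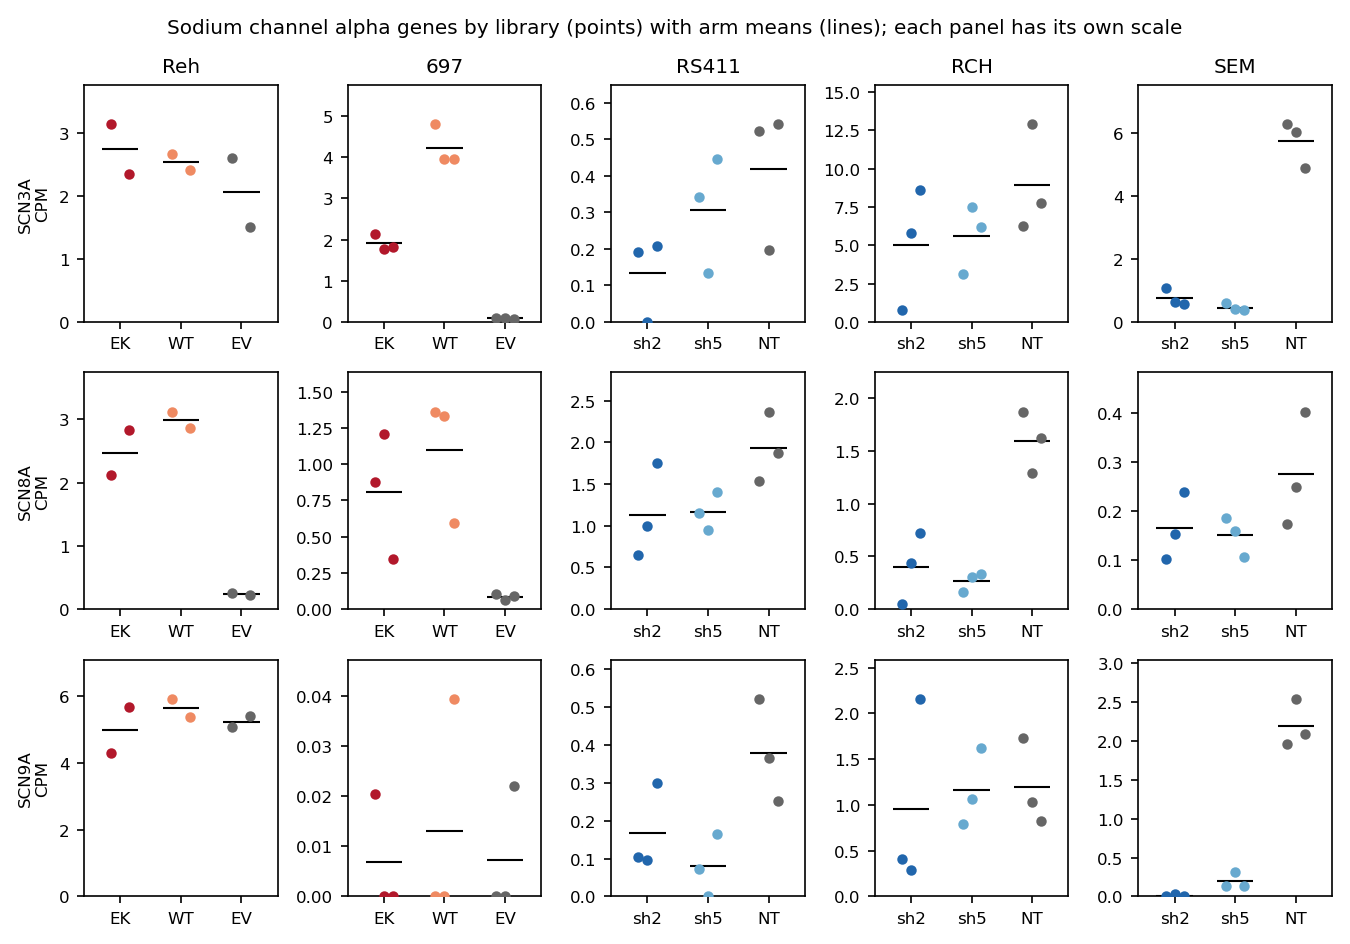
CPM of SCN3A, SCN8A and SCN9A (rows) in each library (points) of each arm, by line (columns; 697 from recovered reads), with arm means as lines and a scale of its own for each panel. SCN8A is higher in EK and WT than in EV in Reh and 697, and SCN3A and SCN9A are lower with sh2 and sh5 than with NT in SEM.

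A fit of all 27 knockdown libraries tested the mean of the 3 within-line changes. SCN8A, which had too few reads to be tested in SEM alone, fell in this mean, with log2 fold changes of -1.14 ± 0.28, adjusted p = 0.00610 for sh2 and -1.38 ± 0.28, adjusted p = 0.00388 for sh5. In SEM it held 18 reads with sh2 and 17 with sh5, against 30 with NT. RCH libraries had 0.0457, 0.438 and 0.719 CPM of SCN8A with sh2 and 0.159, 0.303 and 0.336 CPM with sh5, against 1.87, 1.29 and 1.62 CPM with NT. These did not overlap, although the fit within RCH did not pass (adjusted p = 0.103 for sh2 and 0.326 for sh5). RS411 libraries had 0.650, 0.992 and 1.76 CPM with sh2, 1.15, 0.943 and 1.40 CPM with sh5 and 1.54, 2.37 and 1.87 CPM with NT, and sh2 replicate 3 overlapped NT. SCN8A thus rose with wild-type NSD2 in both overexpression lines and fell in the mean of the knockdown lines with each hairpin. A difference between the knockdown lines was not called (adjusted p = 0.340 for sh2 and 0.266 for sh5).

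The mean response also passed for SCN3A (-1.72 ± 0.37, adjusted p = 0.00255 for sh2 and -1.58 ± 0.37, adjusted p = 0.0108 for sh5). For SCN9A it passed with an adjusted p of 0.000106 for sh2 and 0.00374 for sh5. SCN11A, a sodium channel of sensory neurons, fell with sh2 (adjusted p = 0.00420). The sh2 arms of RS411, RCH and SEM held 63, 11 and 3 SCN11A reads, against 86, 36 and 31 in their NT arms. Scaled by depth, SCN11A had 0, 0.146 and 0.265 CPM with sh2, against 0.456, 0.354 and 0.109 CPM with NT, in RCH, where the arms overlapped. With sh5 its mean did not pass (adjusted p = 0.401). The SEM sh2 level of SCN11A was 9.54% of NT (95% interval 1.87% to 30.6%, exact).

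The summed level of 7 matched neuron marker genes ran from 5.05 to 6.42 CPM in 697 EK libraries, 5.24 to 6.91 in 697 WT and 1.82 to 2.47 in 697 EV, and from 0.760 to 2.09 CPM in SEM sh2, 2.58 to 2.90 in SEM sh5 and 7.55 to 14.2 in SEM NT. Of the genes on this list that were tested, 1 was called in each of these comparisons, MAP2, which encodes a microtubule-associated protein of dendrites, higher in 697 and lower in SEM. STMN2 was at 0 in SEM in all 3 arms, and the 6 muscle markers summed to at most 1.61 CPM in any library. In Reh, where SCN8A rose, the neuron markers summed to 12.6 to 20.5 CPM in EK, 15.0 to 18.8 in WT and 18.7 to 26.5 in EV libraries. Their part in the sodium channel changes was not tested. B-lymphoid markers summed to 1287 to 1344 CPM in SEM sh2, 1285 to 1345 CPM in SEM sh5 and 1534 to 1642 CPM in SEM NT. Fewer cells of a type and less RNA per cell cannot be told apart in such bulk samples.

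The BK channel opens with calcium and voltage together: KCNMA1 encodes its pore, and KCNMB1 to KCNMB4 encode beta subunits that set its calcium sensitivity and inactivation. KCNMA1 moved in opposite directions in RCH and SEM. In RCH it had 3.57, 3.83 and 2.69 CPM with sh2 and 3.57, 2.01 and 2.21 CPM with sh5, against 0.983, 0.547 and 0.765 CPM with NT. Both hairpins lay above every NT library; sh2 was called (2.08 ± 0.32, adjusted p = 0.0150) and sh5 was not (1.72 ± 0.32, adjusted p = 0.141), though sh5 passed with the replicate block (adjusted p = 0.0440). The sh2 call was lost without NT replicate 2 (0.0976), NT replicate 3 (0.107) or sh2 replicate 2 (0.0646).

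In SEM KCNMA1 had 11.3, 16.6 and 13.1 CPM with sh2 and 19.3, 23.6 and 25.3 CPM with sh5, against 32.4, 44.9 and 41.2 CPM with NT. The 3 arms were separate, with sh2 lowest (-1.51 ± 0.16, adjusted p = 4.92e-05 for sh2 and -0.78 ± 0.16, adjusted p = 0.00529 for sh5). The difference between RS411, RCH and SEM passed for both hairpins (adjusted p = 1.34e-05 for sh2 and 0.00299 for sh5). In RS411 the sh2 change was -1.33 ± 0.41, adjusted p = 0.118, and it passed with the replicate block (adjusted p = 0.00355). In 697 EK it was -1.04 ± 0.22, adjusted p = 0.222, and it too passed with the block (adjusted p = 0.0326).

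KCNMB2, the beta subunit that makes BK channels inactivate, was higher in RS411 with sh2 and with sh5. It had 12.8, 9.86 and 10.1 CPM with sh2 and 12.1, 12.2 and 10.3 CPM with sh5, against 4.29, 3.72 and 5.01 CPM with NT. The groups were far apart (1.36 ± 0.16, adjusted p = 0.00366 for sh2 and 1.43 ± 0.16, adjusted p = 0.00514 for sh5). In SEM it had 2.08, 2.03 and 1.93 CPM with sh2, 12.2, 9.37 and 12.2 CPM with sh5 and 2.07, 2.12 and 2.30 CPM with NT, so sh5 alone was high (2.38 ± 0.14, adjusted p = 2.40e-08) and sh2 was not called (-0.09 ± 0.15, adjusted p = 0.737). The hairpins differed directly in SEM (-2.47 ± 0.14, adjusted p = 2.16e-08, sh2 over sh5). Of the exon bases of KCNMB2 32.1% are shared with AC117457.1 on the same strand, so its reads are uncertain between the pair.

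KCNMB4, a beta subunit prominent in the brain, rose in 697 to 74.7, 60.7 and 39.9 normalized counts in EK libraries and 94.997, 93.03 and 72.8 in WT libraries, against 5.35, 6.03 and 3.14 in EV libraries. No NSD2 library overlapped EV (3.34 ± 0.33, adjusted p = 0.00296 for EK and 3.94 ± 0.33, adjusted p = 0.000605 for WT). In SEM it fell to 1.32, 1.75 and 1.88 CPM with sh2 and 1.89, 1.64 and 2.19 CPM with sh5, against 3.02, 3.06 and 3.11 CPM with NT, again without overlap (-0.88 ± 0.18, adjusted p = 0.00191 for sh2 and -0.67 ± 0.18, adjusted p = 0.0136 for sh5). The sh5 call was lost without sh5 replicate 2 (adjusted p = 0.0708). Its mean over the knockdown lines fell with both hairpins (adjusted p = 0.00815 for sh2 and 0.00662 for sh5). In Reh KCNMB4 was high in all arms, at 14.5 CPM or more, and its change was -0.14 ± 0.16 for EK and -0.11 ± 0.16 for WT (adjusted p = 0.99997 and 0.99997).

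KCNMB1, the beta subunit typical of smooth muscle, was higher with sh2 in SEM (0.83 ± 0.12, adjusted p = 6.85e-05) and was not called with sh5 (-0.06 ± 0.12, adjusted p = 0.782). It had 14.9, 12.98 and 13.1 CPM with sh2 and 8.67, 6.59 and 7.04 CPM with sh5, against 7.46, 7.36 and 8.57 CPM with NT. KCNMB3 fell with sh2 in SEM to 0.279, 0.584 and 0.555 CPM, against 1.58, 2.43 and 1.71 CPM with NT (-2.001 ± 0.29, adjusted p = 7.38e-05), and had 1.36, 1.80 and 1.82 CPM with sh5. Of its exon bases 47.5% are shared, mostly with PIK3CA on the opposite strand, and since no source states how strand was handled in counting, its value is uncertain.

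**Figure D4:**
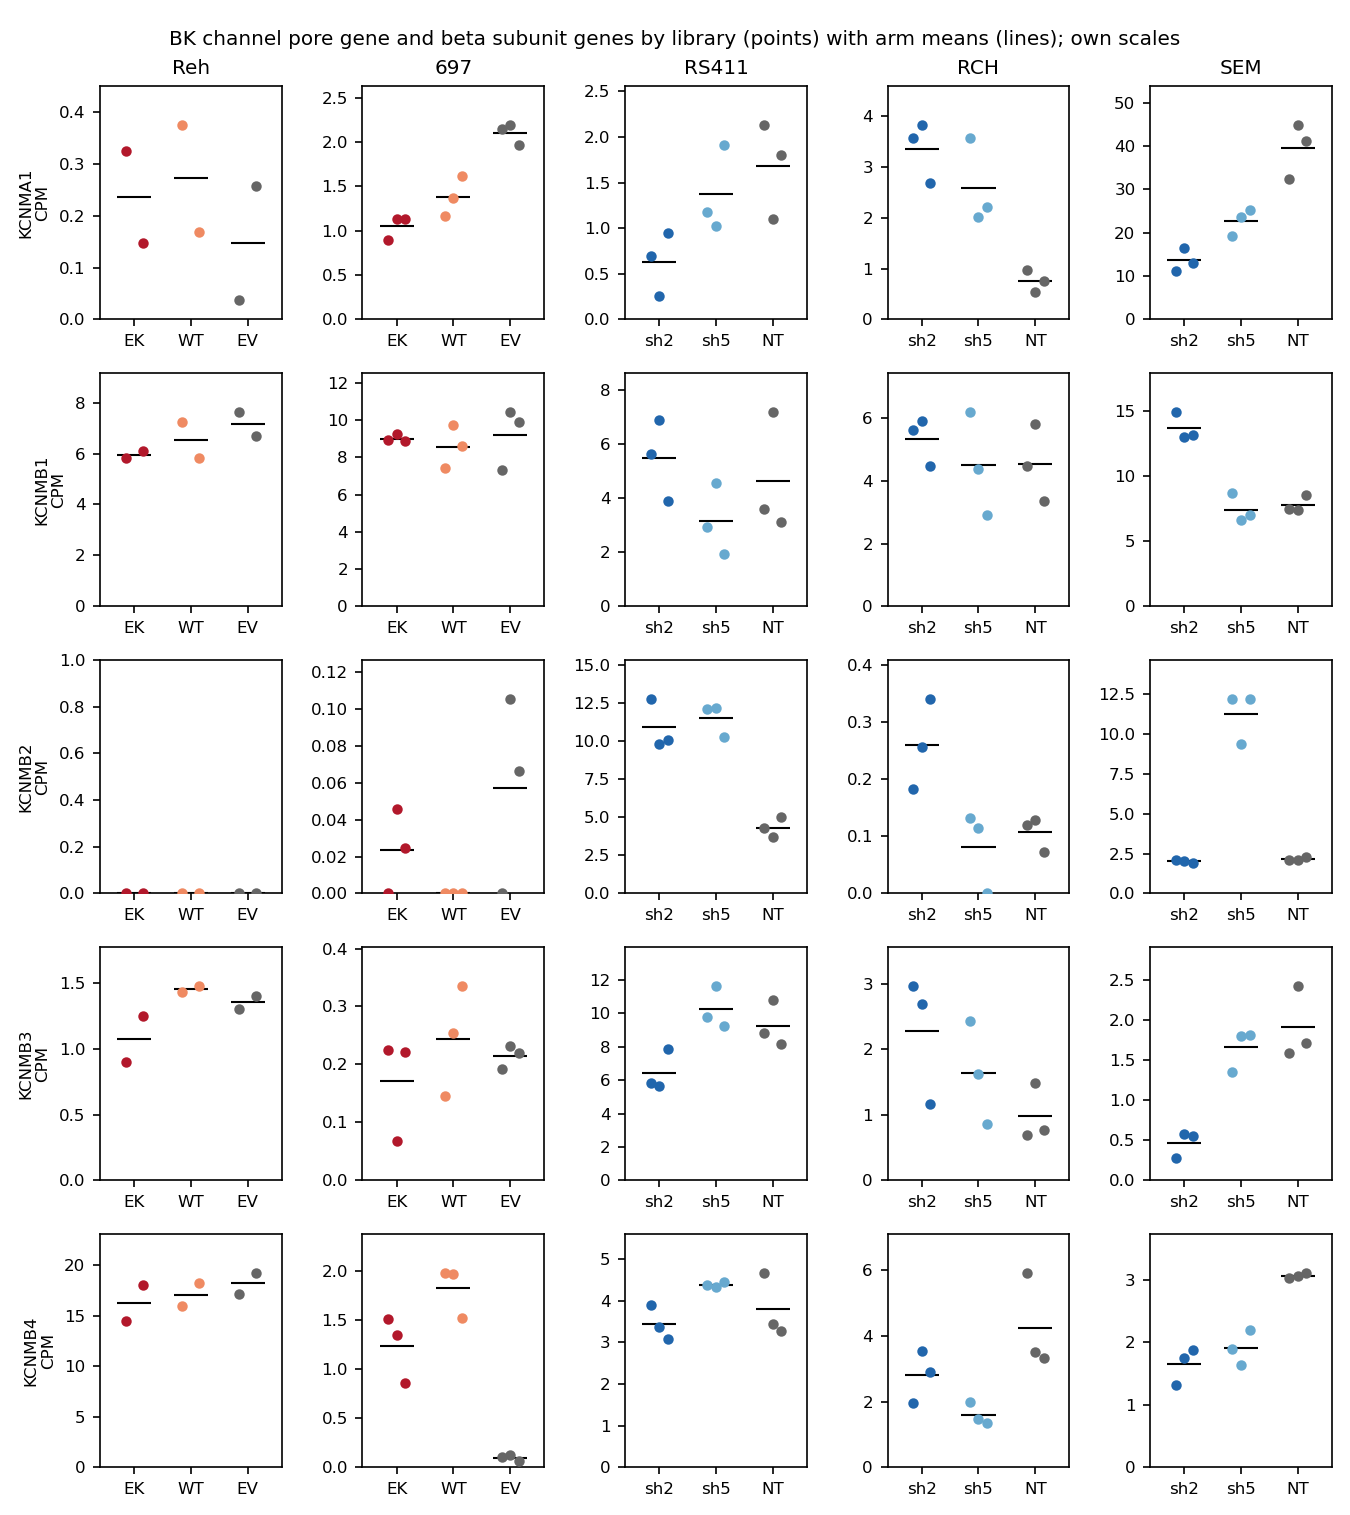
CPM of the BK channel pore gene KCNMA1 and the beta subunit genes KCNMB1 to KCNMB4 (rows) in each library (points) of each arm, by line (columns; 697 from recovered reads), with arm means as lines and a scale of its own for each panel. KCNMA1 is above NT in RCH and below NT in SEM, KCNMB2 is above NT with both hairpins in RS411, and KCNMB4 is above EV in 697.

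Calcium-activated potassium channels without voltage sensing include KCNN4, the channel that sets the membrane potential of activated lymphocytes. In SEM KCNN4 rose to 36.97, 44.8 and 41.997 CPM with sh2 and 32.3, 33.8 and 39.3 CPM with sh5, against 17.9, 24.2 and 22.5 CPM with NT. All hairpin libraries were above NT (0.96 ± 0.11, adjusted p = 1.37e-05 for sh2 and 0.72 ± 0.11, adjusted p = 0.000315 for sh5). In RS411 it had 4.52, 4.48 and 2.20 CPM with sh2, 1.93, 1.89 and 2.69 CPM with sh5 and 1.75, 1.75 and 1.37 CPM with NT, and sh2 was called (1.22 ± 0.27, adjusted p = 0.0488). That call was lost with the 2 arms alone (adjusted p = 0.0923) and without NT replicate 1 (0.146), NT replicate 2 (0.140), NT replicate 3 (0.126), sh2 replicate 1 (0.198) or sh2 replicate 2 (0.143). Its mean over the 3 lines rose with sh2 (0.91 ± 0.17, adjusted p = 0.000660) and was 0.41 ± 0.17, adjusted p = 0.208 with sh5, which passed with the replicate block (0.42 ± 0.11, adjusted p = 0.0162).

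KCNN3, a small-conductance channel of neurons, fell in the sh5 mean (adjusted p = 0.0154). It was sparse: totals with sh5 were 11, 79 and 3 reads in RS411, RCH and SEM, against 23, 116 and 39 reads with NT. In RCH this was 1.46, 0.493 and 0.308 CPM with sh5, against 1.65, 0.676 and 0.474 CPM with NT, and the arms overlapped. The SEM sh5 level was 7.35% of NT (95% interval 1.45% to 23.1%, exact).

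KCNJ6, a G protein-gated inward rectifier of neurons, differed between libraries of the same arm in 697, and is described after its values were seen. It had 9322, 11406 and 14056 normalized counts in WT libraries and 9908, 8.23 and 12981 in EK libraries, against 11.6, 12.1 and 5.23 in EV libraries. In 5 of 6 libraries with added NSD2 the gene stood at 9322 normalized counts or more, while EK replicate 2 was at the level of the EV libraries. That library did not lack NSD2 (84869.7 normalized counts, against at most 10854 in EV libraries) or SCN3A (80.2 normalized counts, against at most 5.35 in EV libraries). In the fit of all 3 arms KCNJ6 in WT was 10.15 ± 2.14, adjusted p = 0.214, not called. It passed with the replicate block (10.15 ± 1.82, adjusted p = 0.0304), in the fit of WT and EV alone (10.15 ± 0.30, adjusted p = 7.00e-06) and without EK replicate 2 (10.15 ± 0.29, adjusted p = 7.60e-07). It did not pass in the other 14 settings run, with adjusted p from 0.0661 to 0.884, among them edgeR on the recovered reads without the block (0.114) and with it (0.347). For EK it was 6.71 ± 2.14, adjusted p = 0.762, and without EK replicate 2 10.14 ± 0.32, adjusted p = 2.10e-06. In each of the other lines KCNJ6 had at most 6 reads per arm.

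KCNJ2, an inward rectifier that holds the resting potential, fell in SEM to 7.14, 6.83 and 4.54 CPM with sh2 and 6.22, 7.23 and 4.80 CPM with sh5, against 18.98, 25.3 and 10.9 CPM with NT. The NT libraries spread widely, yet all were above the hairpin libraries (-1.55 ± 0.33, adjusted p = 0.0102 for sh2 and -1.58 ± 0.33, adjusted p = 0.0122 for sh5). Without sh5 replicate 1 the sh5 call was lost (adjusted p = 0.0506). In RS411 KCNJ2 had 0.0887, 0.0960 and 0.162 CPM with sh2, 0.880, 0.539 and 2.36 CPM with sh5 and 0.308, 0.253 and 0.288 CPM with NT, so the 2 hairpins lay on opposite sides of NT. Neither was called, and sh5 passed with the replicate block (adjusted p = 0.00591). KCNJ16, a partner subunit of other inward rectifiers, rose in the sh2 mean (1.49 ± 0.34, adjusted p = 0.00425). In RCH it had 68.02, 58.2 and 12.7 CPM with sh2, 9.21, 17.7 and 8.79 CPM with sh5 and 10.2, 14.2 and 5.94 CPM with NT, and sh2 replicate 3 fell within the range of the NT libraries.

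Of the 10 voltage-gated potassium channel genes tested in SEM, 4 fell and 2 rose with sh2, and 5 fell and 0 rose with sh5, against 14.4% of all genes lower and 13.5% higher with sh2, and 10.2% lower and 11.1% higher with sh5. KCNA3, the main voltage-gated potassium channel of lymphocytes, had 0.0760, 0.0923 and 0.0528 CPM with sh2 and 0.160, 0.291 and 0.158 CPM with sh5, against 0.749, 0.772 and 0.509 CPM with NT. The arms did not overlap (-3.13 ± 0.45, adjusted p = 7.97e-05 for sh2 and -1.70 ± 0.37, adjusted p = 0.00389 for sh5). In RCH, with 12.6, 14.3 and 20.5 CPM with sh2, 19.1, 15.2 and 12.8 CPM with sh5 and 11.5, 14.2 and 13.1 CPM with NT, it was not called. RS411 had 0.0591, 0 and 0.0694 CPM with sh2, 0.611, 0.189 and 0.702 CPM with sh5 and 0.0474, 0.0563 and 0.252 CPM with NT, so each hairpin overlapped NT while every sh2 library lay below every sh5 library; sh5 passed with the replicate block (2.20 ± 0.53, adjusted p = 0.0252). Its mean response to sh2 passed (adjusted p = 0.00917) and was lost without RS411 NT replicate 3 (adjusted p = 0.120), and the difference between lines passed for both hairpins.

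KCNQ3, a subunit of the M-current that damps excitability, fell in SEM to 0.405, 0.492 and 0.449 CPM with sh2 and 0.452, 0.556 and 0.317 CPM with sh5, against 2.54, 3.59 and 3.24 CPM with NT. The hairpin arms overlapped each other and lay far below NT (-2.77 ± 0.24, adjusted p = 4.94e-07 for sh2 and -2.80 ± 0.24, adjusted p = 1.00e-06 for sh5). RCH had 11.5, 19.02 and 40.5 CPM with sh2, 49.2, 26.6 and 33.9 CPM with sh5 and 51.9, 32.1 and 41.1 CPM with NT, with sh2 replicate 1 the lowest, and no call. KCNS3, a silent subunit that modifies other voltage-gated channels, had 5.47, 4.21 and 5.23 CPM with sh2 and 3.67, 3.28 and 3.67 CPM with sh5, against 13.7, 11.999 and 12.9 CPM with NT. Both hairpin arms were below every NT library (-1.35 ± 0.12, adjusted p = 6.74e-07 for sh2 and -1.85 ± 0.13, adjusted p = 1.04e-07 for sh5). The means over the 3 lines fell with sh2 and sh5 for KCNQ3 (adjusted p = 0.000382 and 0.00369) and for KCNS3 (adjusted p = 0.000748 and 0.000865).

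KCNH8, a channel of the ELK group expressed in brain, fell in SEM with sh2 (-2.37 ± 0.35, adjusted p = 0.000107) and sh5 (-1.14 ± 0.30, adjusted p = 0.0139), to 0.127, 0.215 and 0.264 CPM with sh2 and 0.399, 0.503 and 0.528 CPM with sh5, against 0.720, 1.24 and 1.23 CPM with NT. The sh5 call was lost without NT replicate 2 (0.0587), NT replicate 3 (0.0644) or sh5 replicate 1 (0.0599). Its mean fell with sh2 (-1.33 ± 0.20, adjusted p = 3.57e-05). KCNA5, a channel of heart and vessels, was called in opposite directions in SEM, with 5.37, 5.998 and 5.60 CPM with sh2 and 2.37, 2.25 and 2.59 CPM with sh5, against 2.74, 4.44 and 3.30 CPM with NT. The sh2 libraries were all above NT (0.72 ± 0.16, adjusted p = 0.00357), and the sh5 libraries all below it (-0.53 ± 0.17, adjusted p = 0.0394). The sh5 call was lost with the 2 arms alone (adjusted p = 0.0659) and without NT replicate 2 (0.205), NT replicate 3 (0.0626), sh5 replicate 1 (0.0968), sh5 replicate 2 (0.123) or sh5 replicate 3 (0.0572). In RS411 KCNA5 had 4.51, 6.08 and 2.73 CPM with sh2, 1.61, 2.26 and 1.40 CPM with sh5 and 2.35, 1.92 and 2.02 CPM with NT, so sh2 lay above NT and sh5 overlapped it, and sh2 passed with the replicate block (adjusted p = 0.00385).

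KCNAB2 rose slightly in SEM, with 140.2, 154 and 165 CPM with sh2 and 137, 151 and 160.0 CPM with sh5, against 113, 115 and 139.6 CPM with NT. The sh2 libraries lay just above NT and the sh5 libraries overlapped it (0.34 ± 0.09, adjusted p = 0.0109 for sh2 and 0.30 ± 0.09, adjusted p = 0.0301 for sh5). The calls were lost without NT replicate 2 for sh2 (adjusted p = 0.0550) and without NT replicate 1 (0.0972), NT replicate 2 (0.125), sh5 replicate 2 (0.0898) or sh5 replicate 3 (0.110) for sh5. KCNG1, another silent subunit, had 19.3, 16.5 and 15.7 CPM with sh2 and 16.2, 16.8 and 15.4 CPM with sh5, against 15.01, 13.7 and 12.97 CPM with NT, and was called higher with sh2 (0.33 ± 0.10, adjusted p = 0.0223), a call lost without NT replicate 2 (0.0717), NT replicate 3 (0.0802) or sh2 replicate 1 (0.123). With sh5 it passed with the replicate block (0.23 ± 0.08, adjusted p = 0.0275). KCNIP2, an auxiliary subunit of fast transient potassium channels, rose in the sh2 mean (0.75 ± 0.25, adjusted p = 0.0452). That call was lost in 13 of the fits that left out 1 library, with an adjusted p up to 0.114.

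Two-pore potassium channels carry leak current. In SEM KCNK9, a leak channel closed by acid, fell to 2.08, 2.43 and 2.30 CPM with sh2 and 0.984, 0.953 and 1.37 CPM with sh5, against 4.47, 5.08 and 4.26 CPM with NT. The 3 arms were separate, with sh5 lowest (-0.999 ± 0.17, adjusted p = 0.000322 for sh2 and -2.04 ± 0.18, adjusted p = 1.18e-06 for sh5), and the sh5 mean over lines also fell (-0.78 ± 0.16, adjusted p = 0.00392). Its relative KCNK3 rose with sh5 to 52.1, 41.04 and 40.3 CPM, against 18.4, 11.4 and 15.6 CPM with NT (1.57 ± 0.21, adjusted p = 0.000881), and had 21.97, 15.1 and 16.2 CPM with sh2, which overlapped NT and passed with the replicate block alone (0.25 ± 0.09, adjusted p = 0.0272). KCNK3 was not called in RCH, with all hairpin libraries below NT, at 0.823, 0.694 and 1.14 CPM with sh2, 0.344, 1.02 and 0.952 CPM with sh5 and 1.51, 2.29 and 3.63 CPM with NT. The sh5 difference between lines passed (adjusted p = 0.00119).

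KCNK5, a leak channel opened by alkaline pH, was higher in SEM with sh2, at 56.2, 54.4 and 43.8 CPM, against 26.9, 31.3 and 23.6 CPM with NT (0.94 ± 0.11, adjusted p = 1.44e-05). With sh5 it had 31.9, 31.7 and 29.6 CPM and was not called, though it passed with the replicate block (0.21 ± 0.07, adjusted p = 0.0183). KCNK10, a stretch-sensitive leak channel, fell with sh2 to 1.29, 1.23 and 1.19 CPM, against 2.39, 2.95 and 2.79 CPM with NT (-1.11 ± 0.18, adjusted p = 0.000245), and had 3.91, 2.83 and 3.43 CPM with sh5. The sh2 mean of KCNK10 fell as well (adjusted p = 0.0194; 0.0507 without RS411 sh2 replicate 1).

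KCNK12, the most abundant member of Reh per coding length, rose in RS411 with sh2 to 10.5, 9.15 and 6.66 CPM and had 5.43, 5.20 and 5.75 CPM with sh5, against 3.22, 4.22 and 2.95 CPM with NT. All 6 hairpin libraries exceeded NT, and sh2 was called (1.36 ± 0.19, adjusted p = 0.00774), though not without NT replicate 1 (adjusted p = 0.0671). For sh5 the change was 0.68 ± 0.19, adjusted p = 0.173, and it passed with the block (adjusted p = 0.0224). In SEM it fell with sh5 to 3.24, 2.99 and 2.35 CPM, against 4.09, 5.68 and 3.97 CPM with NT (-0.66 ± 0.18, adjusted p = 0.0145), a call lost without NT replicate 2 (0.0839) or sh5 replicate 3 (0.0680). Its lines differed for both hairpins (adjusted p = 0.00237 for sh2 and 0.0252 for sh5). In Reh KCNK12 had 53.7 and 72.7 CPM in EK libraries and 55.1 and 55.2 CPM in WT libraries, against 113 and 97.3 CPM in EV libraries. All 4 lay below EV, but neither comparison passed without the block (adjusted p = 0.214 for EK and 0.128 for WT). Both passed with it (-0.72 ± 0.11, adjusted p = 0.00186 for EK and -0.95 ± 0.12, adjusted p = 0.000317 for WT). With 2 pairs it is not known whether the numbers pair the Reh libraries.

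Of the 10 calcium channel pore genes 3 were tested in Reh, 7 in 697, 5 in RS411, 5 in RCH and 1 in SEM. None was called within a line by the main fits, without a replicate block. Of all genes 0.0229% to 1.67% were called per comparison outside SEM, and 27.9% and 21.3% in SEM. With so few pore genes tested, the lack of calls tells little about them. With the block CACNA1A, the pore of P/Q-type channels, was lower with sh2 in SEM (-0.52 ± 0.16, adjusted p = 0.0148). CACNA1E, that of R-type channels, was lower with sh2 in RS411 (-1.81 ± 0.57, adjusted p = 0.0428). In Reh, where pairing was not shown, the block called CACNA1G higher in EK (adjusted p = 8.26e-05) and WT (adjusted p = 0.0106). For RCH sh2, where pairing was not shown either, it called CACNA1H (adjusted p = 0.0336) and CACNA1S (adjusted p = 0.0373) higher. Among the auxiliary genes CACNA2D1, the alpha2delta subunit bound by gabapentin, was nearly lost in SEM with sh2. It had 0, 0.0923 and 0 CPM with sh2 and 0.133, 0.503 and 0.396 CPM with sh5, against 2.56, 1.24 and 2.17 CPM with NT. The sh2 libraries held 3 reads in all and the NT libraries 215, a level of 1.38% of NT (95% interval 0.281% to 4.07%, exact; adjusted p = 2.47e-05), and sh5 was called too (-2.51 ± 0.46, adjusted p = 0.00148). Reh was the other line with a clear level, at 6.42 CPM or more in every library, with no call. The abundant subunit CACNA2D4 rose slightly in SEM with sh2, to 284, 275 and 268 CPM, against 224, 245 and 228 CPM with NT (0.27 ± 0.05, adjusted p = 0.00107). CACNB4, a beta subunit that brings the pore to the membrane, had 119, 134 and 135 CPM with sh2 and 129, 125 and 119 CPM with sh5, against 92.6, 114 and 102 CPM with NT. It rose in both without overlap (0.35 ± 0.07, adjusted p = 0.00125 for sh2 and 0.29 ± 0.07, adjusted p = 0.00730 for sh5). With sh5 CACNA2D4 had 243, 248 and 251 CPM and overlapped NT.

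**Figure D5:**
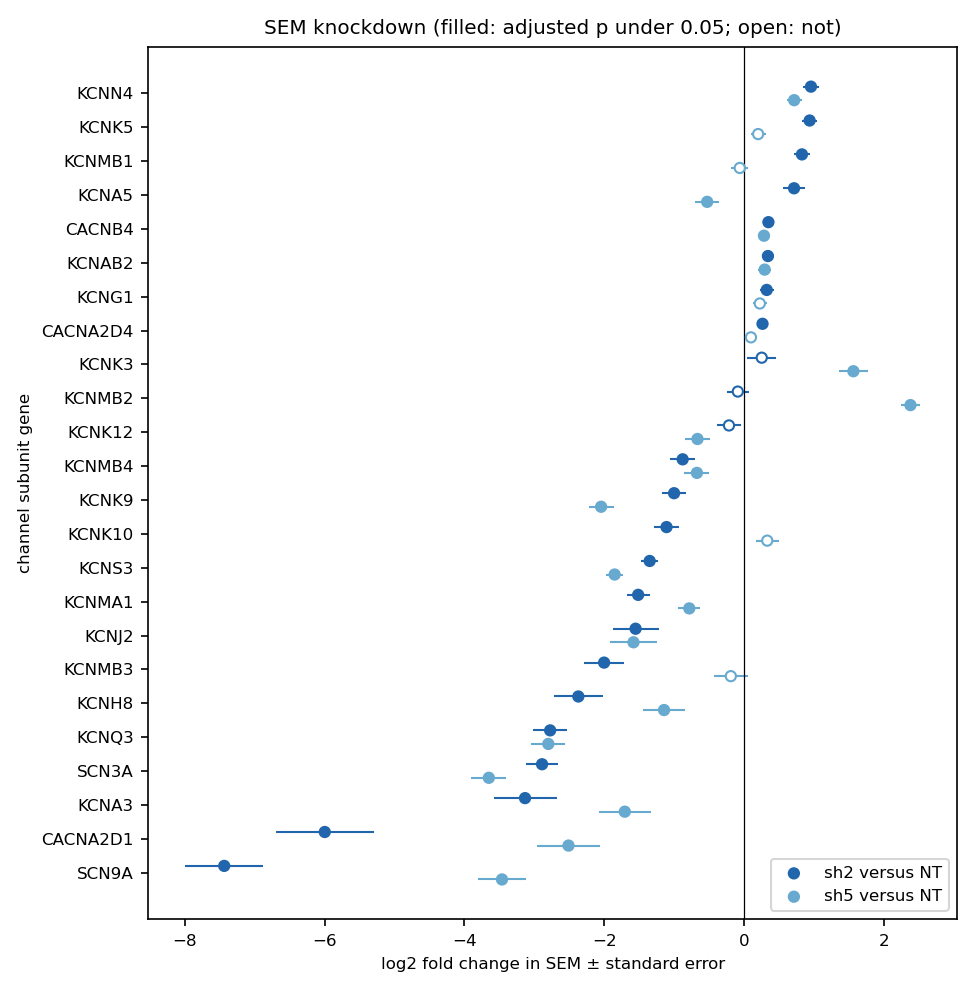
Log2 fold change ± standard error in SEM for sh2 (dark blue) and sh5 (light blue) against NT, for 24 of the 26 channel subunit genes called with either hairpin, ordered by the sh2 value. Filled points passed an adjusted p under 0.05 and open points did not; the sh2 points of SCN9A and CACNA2D1 rest on 1 and 3 reads. KCNMB2 and KCNK3 are filled with sh5 alone, KCNK10 and KCNMB3 with sh2 alone, and KCNA5 has filled points on both sides of 0.

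A direct contrast of sh2 with sh5 in SEM, added after the data were seen, does not set either arm against NT, although the NT libraries share the fit. It called 14 of 39 members, 7 higher and 7 lower with sh2, against 12.4% of all genes (4.33% higher, 8.02% lower). NSD2 itself was slightly higher with sh2 than with sh5 (0.29 ± 0.06, adjusted p = 0.00425). Higher with sh2 were KCNJ16 (1.70 ± 0.35, adjusted p = 0.00431), KCNA5 (1.24 ± 0.17, adjusted p = 0.000105), KCNK9 (1.04 ± 0.19, adjusted p = 0.00137), KCNMB1 (0.89 ± 0.12, adjusted p = 9.24e-05), KCNK5 (0.74 ± 0.11, adjusted p = 0.000315), KCNS3 (0.50 ± 0.13) and CACNA2D4 (0.17 ± 0.05). Lower with sh2, besides KCNMB2, were KCNMB3 (-1.81 ± 0.29, adjusted p = 0.000496), KCNK10 (-1.44 ± 0.18, adjusted p = 4.38e-05), KCNK3 (-1.31 ± 0.21, adjusted p = 0.00342), KCNMA1 (-0.73 ± 0.16), and SCN9A and CACNA2D1, whose sh2 arms held 1 and 3 reads. Leaving out 1 library ended the calls for CACNA2D4 (any of the 6; also lost with no filter on low counts), CACNA2D1 (without sh2 replicate 1 or 3 or sh5 replicate 2 or 3), KCNS3 (without sh2 replicate 1 or 3 or sh5 replicate 2) and KCNMA1 (without sh2 replicate 3 or sh5 replicate 2 or 3), with adjusted p up to 0.157, 0.0943, 0.0790 and 0.0629.

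Over the 3 knockdown lines together, 16 of 73 tested members passed for the mean response to sh2, 5 higher and 11 lower, against 15% of all genes (7.92% higher, 7.11% lower). For sh5 it was 10 of 73, 1 higher and 9 lower, against 5.11% of all genes (2.99% higher, 2.13% lower). The higher members with sh2 were KCNN4, KCNMB2, KCNK12, KCNJ16 and KCNIP2, and with sh5 KCNMB2 (1.16 ± 0.23, adjusted p = 0.00303), whose sh5 call was lost without RCH sh5 replicate 1 (adjusted p = 0.139). The response differed between lines for 17 members with sh2, against 7.93% of all genes, and for 9 members with sh5, against 1.75%.

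A list of 80 related ion transport genes gave at most 1 call per comparison within lines other than SEM. Of all genes 0.0229% to 1.67% were called in those comparisons. FGF13, a cytoplasmic partner of sodium channels, was higher in Reh EK (2.33 ± 0.25, adjusted p = 0.0330) and WT (2.38 ± 0.25, adjusted p = 0.0276), and it fell in SEM with sh2 (-4.57 ± 0.35, adjusted p = 1.19e-07) and sh5 (-3.59 ± 0.31, adjusted p = 9.95e-07). ANK2, which anchors channels and pumps in the membrane, was higher in 697 WT (2.17 ± 0.32, adjusted p = 0.0239) and fell in SEM with sh2 (-1.61 ± 0.15, adjusted p = 1.07e-06) and sh5 (-0.99 ± 0.14, adjusted p = 0.000159). CLCN4, a chloride-proton exchanger, was higher in RS411 sh5 (3.54 ± 0.64, adjusted p = 0.0339) and lower in SEM sh5 (-0.38 ± 0.10, adjusted p = 0.0143). No gene of the set was called in 697 EK, RS411 sh2 or either RCH comparison. In SEM, 14 of 57 tested were higher and 14 lower with sh2, against 13.5% and 14.4% of all genes. With sh5 10 were higher and 10 lower, against 11.1% and 10.2% of all genes. The mean response over the 3 knockdown lines was higher for 8 and lower for 11 of 63 with sh2, against 7.92% and 7.11% of all genes. With sh5 it was higher for 4 and lower for 0, against 2.99% and 2.13% of all genes.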

How the data were processed

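Per the labels' protocols, RNA from RNeasy kits was made into TruSeq stranded, RiboZero Gold libraries. Per the submitters' processing notes, Trimmomatic, STAR, featureCounts and hg19 were used; no source used here gives versions or strand setting. The authors deposited raw gene counts for every line except 697. For 697 the authors deposited normalized counts, a signal equal to counts divided by 1 factor per library, from which whole reads were recovered. The 3 columns of a Reh replicate 3 match no sample and were not used.

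Counts were tested with edgeR 4.0.16 (quasi-likelihood F-tests, TMM, filterByExpr, robust) the arms of each line being fitted together. Values of 697 were tested with limma 3.58.1 on log2(normalized count + 1), keeping genes whose mean reached 10. The 27 knockdown libraries were also fitted together in edgeR, for the mean of the line responses and for their heterogeneity (F-test, 2 degrees of freedom). Benjamini-Hochberg adjustment covered all tested genes, and calls had an adjusted p under 0.05. CPM scales reads by the library's gene-assigned total, and coding lengths and exon overlaps came from GENCODE v29. Scripts were tested on simulated data. Alternatives were DESeq2 1.42.0, other factors and filters, 2 arms alone, the replicate block and left-out libraries.

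Named were NSD2, every member called in any comparison or joint fit, and the 5 highest members per line; 2 called members are counted but not reported here. Members and lists were chosen with earlier results of these data known, and KCNJ6, KCNG3 and KCNIP4 after their values were seen. Replicate numbers were taken to pair libraries where all of 3 same-numbered pairs had correlated deviations from their arm means above 0.1: 697 (lowest correlation 0.480), RS411 (0.340), RCH sh5 (0.338) and SEM (0.187), but not RCH sh2 (-0.00866). Reh has 2 pairs. The labels do not state a pairing, and differently numbered libraries were not compared. The block was fitted to all arms of a line together, so for RCH sh5 it took in the sh2 libraries.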

Additional observations from a re-analysis of the deposited data

Results flagged for a closer look

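The response to a hairpin differed between RS411, RCH and SEM for the members below, by the test of that difference in the joint fit (adjusted p over all genes). With sh2 the adjusted p was 1.34e-05 for KCNMA1, 0.000801 for KCNMB3, 0.00137 for SCN9A, 0.00237 for KCNK12, 0.00241 for SCN4A, 0.00242 for KCNA3, 0.00431 for KCNJ5 and 0.00455 for KCNT2. It was 0.00607 for KCNA5, 0.00645 for KCNH8, 0.00922 for KCNMB2, 0.00922 for KCNN3, 0.0103 for CACNA2D4, 0.0251 for KCNG1, 0.0451 for CACNA2D1 and 0.0499 for KCNQ3. With sh5 it was 0.00119 for KCNK3, 0.00299 for KCNMA1, 0.00414 for KCNA3, 0.00810 for KCNK9, 0.0151 for KCNQ3, 0.0153 for KCNMB4, 0.0179 for KCNMB2 and 0.0252 for KCNK12.

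Leaving out 1 library ended some of these. For KCNQ3 with sh2 the difference was lost without 15 of the libraries left out in turn, up to 0.138, and for CACNA2D1 with sh2 without 11, up to 0.249. KCNG1 with sh2 was lost without RCH NT replicate 2 or 3, RCH sh2 replicate 1, SEM NT replicate 2 or 3 or SEM sh2 replicate 1 (up to 0.107). KCNK12 with sh5 was lost without RS411 NT replicate 1 or 3, RS411 sh5 replicate 3, SEM NT replicate 2 or SEM sh5 replicate 2 or 3 (up to 0.121). With sh5, KCNQ3 was lost without SEM sh5 replicate 1 or 3 (up to 0.0712), KCNMB4 without RS411 NT replicate 2 or 3 (up to 0.0513) and KCNMB2 without RCH NT replicate 2 (0.0507).

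SCN4A, the sodium channel of skeletal muscle and the neighbour of CD79B on chromosome 17, had 10.97, 14.6 and 10.4 CPM with sh2, against 3.64, 2.70 and 3.95 CPM with NT, in RCH and 0.0760, 0.185 and 0.158 CPM with sh2, against 0.317, 0.303 and 0.429 CPM with NT, in SEM, where sh2 passed with the replicate block (-1.31 ± 0.48, adjusted p = 0.0372). KCNJ5, a G protein-gated inward rectifier, had 0.640, 0.694 and 0.757 CPM with sh2, against 0.216, 0.290 and 0.182 CPM with NT, in RCH and 0.148, 0.0640 and 0.116 CPM with sh2, against 0.356, 0.676 and 0.396 CPM with NT, in RS411. KCNT2, a sodium-activated potassium channel, rests on few reads, with 31 in RCH sh2, against 4 in NT, and 0 in SEM sh2, against 20 in NT. In RS411 it had 0 reads in sh2, against 1 in NT, and CACNA2D1 had 0 in both arms there and 8 in RCH sh2, against 14 in RCH NT. For both genes RS411 thus gives no response to compare.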

How the results depend on the processing

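Of 121 results for single members, 92 kept their call, and their direction where the test has one, in every counted setting that tested the gene. None reversed, but tests of a difference between lines have no direction and could not reverse. Fits that left out a library of an arm outside the comparison are not counted in this section. The counts of called members in SEM and of mean responses stayed within 1.5 times in all settings so counted. With DESeq2 the counts were 3 in Reh EK, 2 in Reh WT, 6 in RS411 sh2, 3 in RS411 sh5, 10 in RCH sh2 and 3 in RCH sh5. Without a filter on low counts they were 5, 3, 8, 7, 16 and 4 in the same order, and 26 and 20 for the differences between lines with sh2 and sh5. With the 2 compared arms alone they were 0 in Reh EK, 0 in Reh WT, 2 in RS411 sh5 and 2 in RCH sh2. With the replicate block they were 11 in Reh EK, 8 in Reh WT, 4 in 697 EK, 5 in 697 WT, 14 in RS411 sh2, 6 in RS411 sh5, 19 in RCH sh2, 1 in RCH sh5 and 26 for the sh2 difference between lines, where KCNQ3 was lost (adjusted p = 0.0572). In 697 EK edgeR on recovered reads with the block, added after the data were seen, gave 4. Leaving out 1 library gave 0 in Reh EK and Reh WT each time, 1 to 13 in RS411 sh2, 1 to 2 in RS411 sh5 and 0 to 10 in RCH sh2 (0 without NT replicate 2 or 3 or sh2 replicate 2, 2 without NT replicate 1, 10 without sh2 replicate 3). Over all genes, called counts ran from 0 to 1027 in Reh EK, 0 to 629 in Reh WT, 9 to 189 in 697 EK, 18 to 205 in 697 WT, 11 to 2495 in RS411 sh2, 5 to 929 in RS411 sh5, 15 to 1937 in RCH sh2, 0 to 199 in RCH sh5, 1089 to 4008 for the sh2 difference between lines, 248 to 1079 for the sh5 difference, 2412 to 4639 for the sh2 mean, 779 to 2002 for the sh5 mean, 2648 to 5591 in SEM sh5 and 1474 to 3532 for SEM sh2 against sh5. In Reh the deviations of the 2 pairs of libraries correlated at 0.713 for EK and 0.736 for WT, and 2 pairs are too few to say whether the numbers pair them. With the block 1027 of 15972 tested genes were called in Reh EK and 629 in Reh WT, against 34 and 35 without it. The highest all-gene counts also came with the block in RS411, SEM, both means and the sh2 difference. In RCH and for the sh5 difference they came with no filter, and in 697 with edgeR on recovered reads and the block. All-gene shares with DESeq2, and in RCH sh2 with the block, are not given here. The causes of these shifts, which touched all genes as well as members, were not tested. Between 66 and 95 of the 134 members had too few reads to be tested in a line, so changes in them were not detectable at this depth.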

Other observations

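Some members were on in single libraries of an arm and near 0 in others. KCNG3, a silent subunit of voltage-gated potassium channels, had 0.163 and 68.9 CPM in Reh EK libraries, 0.226 and 99.7 CPM in WT libraries and 0.223 and 31.3 CPM in EV libraries, so replicate 2 was high and replicate 1 near 0 in every arm. In Reh, KCNAB2 and CACNB4 were also higher in replicate 2 of each arm, KCNAB2 at 41.2 and 102 CPM in EK, 57.2 and 107 CPM in WT and 58.2 and 92.96 CPM in EV libraries. In 697 KCNG3 had 3.03, 11.3 and 1539 normalized counts in EK libraries, against 7.13, 10.05 and 7.33 in EV libraries. KCNIP4, an auxiliary subunit of transient potassium channels, held 2383 reads in 697 WT replicate 1, 0 in replicate 2 and 3 in replicate 3. Neither gene was called in 697.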
